A study of Homo sapiens with 4 samples.

Results

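The interferon-stimulated and RNA-sensing genes were a list of 47 genes, chosen by name: the RNA sensors and their adaptor, the transcription factors that carry an interferon signal, and the antiviral effectors, modifiers and other genes that interferon is known to induce. A gene was counted as measured when its probe was well above background on at least 1 of 4 arrays, a flag set by the scanner software for spots clearly brighter than their surroundings. By that rule 36 of the 47 genes (76.6%) were measured, of 17353 measured gene names on the whole array, which is 40.1% of its 43311 gene names. That rule compared no conditions, but a gene bright on only 1 array could pass it. OASL and HERC5 passed through the MDS-L AZA array alone. The list itself was drawn up with earlier results of these data known. Where a gene had several probes, the brightest on average over the 4 arrays stood for it. This was needed for 17 of the 47 genes, and the whole list had 67 probes.

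The study compared gene expression in MDS-L cells, a human line established from a patient with myelodysplastic syndrome, and in MDS-L/CDA cells, which are MDS-L cells made resistant to 5-azacytidine (AZA) by transducing CDA, a deaminase that inactivates cytidine analogues. Each line received either 1 μM AZA or the vehicle, 0.1% DMSO, for 72 h, in medium with serum and interleukin-3, and RNA from each of the 4 conditions was hybridized to 1 one-colour array. The sources used here do not say whether MDS-L/CDA is a clone or a pool. The labels conflict for 2 arrays: the treatment field of the MDS-L AZA array and of the MDS-L/CDA vehicle array names the opposite treatment to their titles, descriptions and source names, and some titles give the dose in mM. The groups here follow the source names.

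AZA is incorporated into nucleic acid and traps DNA methyltransferases, so that DNA loses methylation as cells divide. Loss of methylation is known to allow transcription of endogenous retroviral repeats, whose double-stranded RNA can be recognised by the cytosolic sensors RIG-I (DDX58) and MDA5 (IFIH1). These signal through MAVS to interferon regulatory factors, and the secreted interferon then acts through its receptor, STAT2 and IRF9 on the interferon-stimulated response element (ISRE) of its target genes. The arrays measured the mRNA end of this chain and neither methylation nor double-stranded RNA.

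The sequences of 6 genes are given to show the ISRE core beside members that AZA left at different levels. ISG20, IFIT1 and IFIT5 had AZA ratios past 2-fold in MDS-L cells, ISG15 was measured on all 4 arrays with a ratio near 1, and IFI44L and OAS3 were below background on all 4 arrays. Each line holds the 300 bases from 250 bases before to 50 bases after the annotated transcription start in RefSeq on GRCh38.p14, on the strand of the gene. The capitals mark matches to the ISRE core, GAAA then any 2 bases then GAAA, on either strand, with overlapping matches run together. The windows lie at chr15:88638766-88639065 (ISG20), chr10:89392373-89392672 (IFIT1), chr10:89414318-89414617 (IFIT5), chr1:1013247-1013546 (ISG15), chr1:78620198-78620497 (IFI44L) and chr12:112938224-112938523 (OAS3), all on the plus strand.
ISG20: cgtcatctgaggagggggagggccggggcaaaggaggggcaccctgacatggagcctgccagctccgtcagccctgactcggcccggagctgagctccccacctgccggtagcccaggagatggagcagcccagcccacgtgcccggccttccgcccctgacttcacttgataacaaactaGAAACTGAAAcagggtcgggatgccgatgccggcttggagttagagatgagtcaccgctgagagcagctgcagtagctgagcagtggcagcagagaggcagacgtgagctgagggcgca
IFIT1: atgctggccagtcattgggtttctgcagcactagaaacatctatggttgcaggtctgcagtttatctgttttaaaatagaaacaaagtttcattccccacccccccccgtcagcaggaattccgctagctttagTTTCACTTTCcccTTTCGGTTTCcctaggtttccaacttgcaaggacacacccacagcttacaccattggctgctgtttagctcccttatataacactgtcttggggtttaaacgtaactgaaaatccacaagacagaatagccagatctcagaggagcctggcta
IFIT5: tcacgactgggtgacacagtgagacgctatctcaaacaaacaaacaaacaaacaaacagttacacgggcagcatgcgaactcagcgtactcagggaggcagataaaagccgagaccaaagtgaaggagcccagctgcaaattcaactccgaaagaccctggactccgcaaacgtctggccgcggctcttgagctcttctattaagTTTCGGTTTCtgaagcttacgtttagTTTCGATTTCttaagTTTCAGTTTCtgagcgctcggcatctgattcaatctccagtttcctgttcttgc
ISG15: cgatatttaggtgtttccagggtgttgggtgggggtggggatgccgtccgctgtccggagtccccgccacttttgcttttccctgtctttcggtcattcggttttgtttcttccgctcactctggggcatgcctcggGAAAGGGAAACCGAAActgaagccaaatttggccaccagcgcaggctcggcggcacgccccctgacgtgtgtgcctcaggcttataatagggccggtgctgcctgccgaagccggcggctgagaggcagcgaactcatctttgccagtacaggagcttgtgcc
IFI44L: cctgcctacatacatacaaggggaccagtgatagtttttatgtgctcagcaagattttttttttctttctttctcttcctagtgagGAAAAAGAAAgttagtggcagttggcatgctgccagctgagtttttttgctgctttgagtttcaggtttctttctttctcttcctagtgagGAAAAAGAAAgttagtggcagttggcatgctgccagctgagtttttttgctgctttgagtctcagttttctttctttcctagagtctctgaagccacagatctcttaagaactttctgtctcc
OAS3: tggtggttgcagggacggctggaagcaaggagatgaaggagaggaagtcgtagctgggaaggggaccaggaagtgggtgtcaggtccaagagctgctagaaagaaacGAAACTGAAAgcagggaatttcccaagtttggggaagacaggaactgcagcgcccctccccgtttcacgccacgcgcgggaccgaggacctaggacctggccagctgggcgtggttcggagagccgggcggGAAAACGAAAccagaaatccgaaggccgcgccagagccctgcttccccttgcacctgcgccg

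ISG20 held 1 core, beginning 69 bases before the start, IFIT1, ISG15, IFI44L and OAS3 held 2 each, and IFIT5 held 3. The motif was thus found both in genes that were measured and in genes that were not. Promoter windows were matched for 38 of the 47 genes, and 27 of these (71.1%) held at least 1 core, against 1195 of the 27305 gene symbols with a window (4.38%). Among the matched genes measured in MDS-L cells 20 of 28 (71.4%) held a core, and among those below background on both MDS-L arrays 7 of 10 (70.0%) did. The median number of CpG dinucleotides in the window was 8.5 over the 38 matched genes and 13 over all symbols, with a median of 13.5 in the genes measured in MDS-L cells and 4.5 in those below background there. IFI44, IFI44L and SAMD9L had no CpG in the window, and IRF1 had the most, 36. A match is a description of the letters in this window and not evidence of binding, and no methylation value was available to set beside it.

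Signals are given as scaled intensity, the background-subtracted fluorescence after each array was set to a common 75th percentile. They can be compared between arrays for 1 gene but not between genes, since probes differ in brightness for the same amount of RNA. The 75th percentile before scaling was 37.3 to 52.9 on the 4 arrays, between 32.6% and 36.5% of probes were well above background, and no spot was saturated. With 1 array per condition there was no replicate culture, so no difference has a test. The only measured error was technical: the median SD between spots of the same probe on 1 array was 0.12 to 0.20 on the log2 scale, which gives a technical SD of 0.18 for the AZA ratio in MDS-L and 0.26 in MDS-L/CDA cells. The threshold for calling a gene higher or lower was a ratio of 2 (a log2 ratio of 1). Where 1 of 2 arrays was below background, the ratio is a bound, for which the dim signal was raised to the array's floor, the dimmest signal that array flagged as well above background, unless it already lay higher.

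The probe for CDA, the transduced gene, was below background on all 4 arrays, at 4.77 and 4.27 in MDS-L and 4.98 and 6.60 in MDS-L/CDA cells with vehicle and AZA. Whether the construct holds the sequence of this probe is not given in the sources used here, so the probe does not check the labels. DNMT1, the methyltransferase that AZA depletes as protein, had log2 ratios of -0.32 in MDS-L and 0.16 in MDS-L/CDA cells. Of 8 progenitor markers, CD34, KIT, CD33, ANPEP, PTPRC, IL3RA and CD38 were above background on all 4 arrays and MPO on none. Of 6 plasmacytoid dendritic cell markers 4 were below background on every array, the defining CLEC4C and LILRA4 among them, while 1 or 2 were above it on each array. All 5 fibroblast markers were below background on every array.

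AZA in MDS-L cells went with higher signals for a small number of the interferon genes, ISG20, OASL, DHX58, IFIT1, IFIT2 and IFIT5, and with a lower signal for TRIM22. These were 6 of the 36 genes measured on either array (16.7%) at least 2-fold higher and 1 (2.78%) at least 2-fold lower, where 6.73% of all 17172 genes measured were higher and 6.03% lower. The counts rest on the brightest probe of each gene. Dimmer probes of DDX58, CMPK2, IFITM1 and PARP9, above background on both arrays, had log2 ratios of -1.76, -1.54, -1.13 and -1.12. No dimmer probe was past 2-fold higher. OASL, among the 6 higher genes, was above background in MDS-L cells with AZA alone. Of the 34 genes above background on both arrays 5 were at least 2-fold higher. The matching share over the 15104 of all genes above background on both arrays was not computed. Most of the list lay near 1. Over the 34 genes above background on both arrays the median log2 ratio was 0.06, with 20 genes above a ratio of 1 and 14 below, and 11 of the 34 ratios were within 1 technical SD. With the 2 bounds added the median was 0.08. The median of all genes was -0.16, with 37.7% of them above a ratio of 1. Under scaling to the median of all probes the medians of the list and of all genes moved together to -0.48 and -0.70. In a bulk RNA sample, more RNA per cell and more cells with the RNA cannot be told apart.

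In MDS-L/CDA cells AZA went with higher signals for ISG20 and IFIT1 and lower signals for TRIM22 and RSAD2. These were 2 genes higher and 2 lower of the 34 measured (5.88% each), where 2.53% of all 15393 genes were higher and 3.07% lower. The median log2 ratio over the 32 genes above background on both arrays was 0.13, against 0.01 for all genes. In the list 20 genes were above a ratio of 1 and 12 below, where 51.5% of all genes were above 1. Of the 32 ratios 17 were within 1 technical SD. IFIT1 stood just inside the threshold in MDS-L cells with a log2 ratio of 1.01 and IFI6 just outside it with 0.95, while in MDS-L/CDA cells RSAD2 stood just inside at 2.01-fold lower and IFI44 outside with a log2 ratio of 0.74. On hg19 the probes of the 8 genes past 2-fold in either line lie on chromosome 15 at 89198784 to 89198843 (ISG20), on chromosome 12 at 121458320 to 121458379 (OASL), on chromosome 17 at 40253459 to 40253518 (DHX58), on chromosome 11 at 5731591 to 5731650 (TRIM22) and on chromosome 2 at 7037200 to 7037259 (RSAD2). The 3 IFIT probes lie together on chromosome 10, at 91068397 to 91068456 (IFIT2), 91163438 to 91163497 (IFIT1) and 91179559 to 91179618 (IFIT5).

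**Figure D1:**
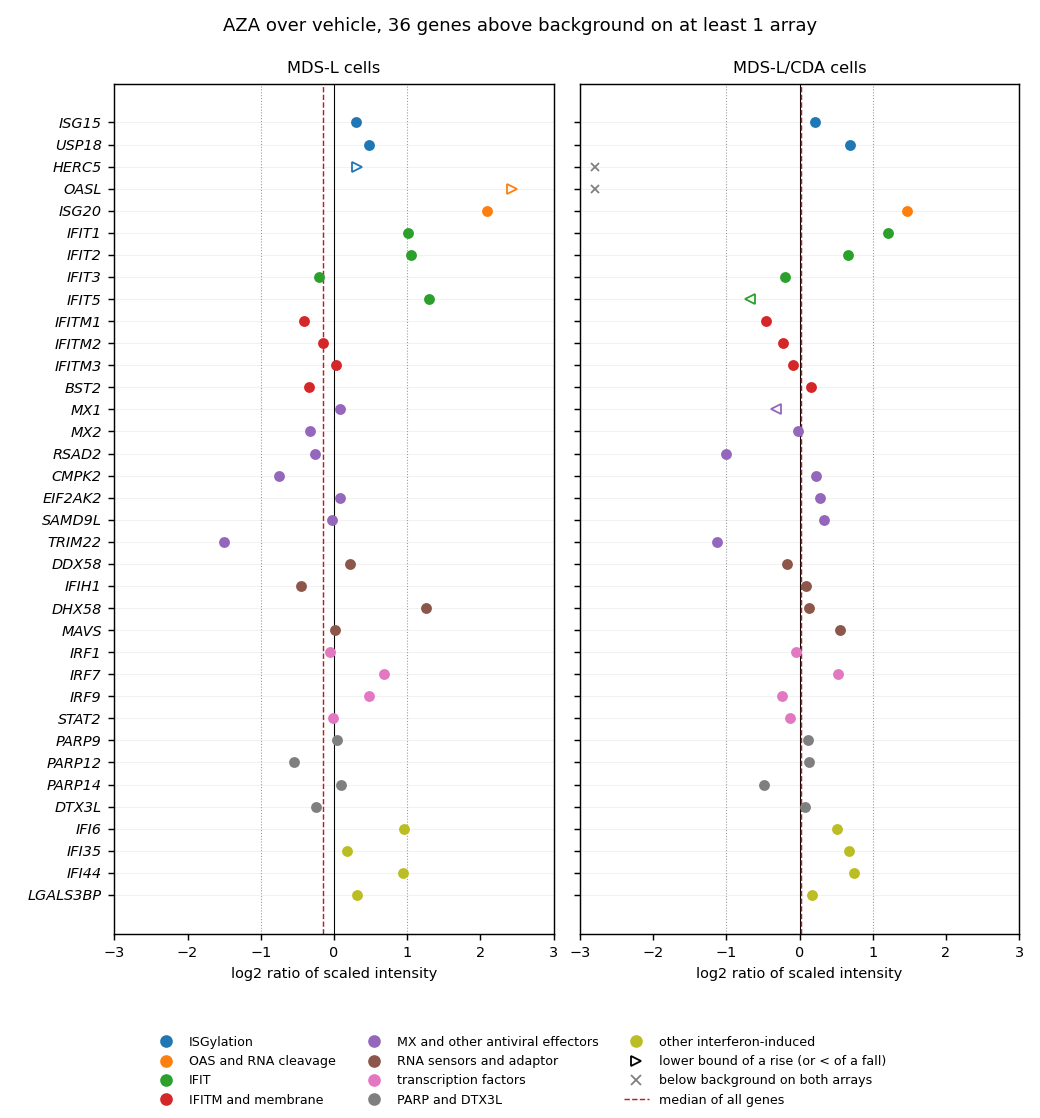
Log2 ratio of scaled intensity, AZA over vehicle, for the 36 measured genes in MDS-L cells (left) and MDS-L/CDA cells (right), coloured by role. Circles are ratios of 2 arrays above background, open triangles are bounds, crosses mark genes below background on both arrays, dotted lines stand at 2-fold and the dashed line at the median of all genes. ISG20 lies at 2.09 and 1.47 and TRIM22 at -1.50 and -1.12, with most other genes between the dotted lines.

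The genes of RNA cleavage comprised the oligoadenylate synthetases, which make 2′-5′ oligoadenylates on binding double-stranded RNA, and ISG20, an exonuclease that degrades single-stranded RNA. ISG20 had a scaled intensity of 278 with vehicle and 1183 with AZA in MDS-L and of 166 and 461 in MDS-L/CDA cells. Both lines were higher with AZA, by 4.25-fold and 2.77-fold, the largest ratio of the list in each line among genes above background on both arrays. MDS-L cells were also the brighter line under both treatments. OASL, a synthetase-like protein without synthetase activity that supports RIG-I signalling, was above background on the MDS-L AZA array alone, at 50.7. It gave 9.39 with vehicle there and 3.14 and 5.38 in MDS-L/CDA cells, so its ratio in MDS-L cells was at least 5.39-fold and none can be given for MDS-L/CDA cells. With normexp correction this log2 ratio was 0.69. The 3 active synthetases OAS1, OAS2 and OAS3 were below background on every array, with scaled intensities of 1.95 to 5.46.

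The IFIT proteins bind the 5′ ends of foreign RNA and block its translation. IFIT1, which recognises RNA without the host's cap methylation, had a scaled intensity of 25.2 with vehicle and 51.0 with AZA in MDS-L cells, and 42.9 and 98.7 in MDS-L/CDA cells. IFIT2, its binding partner, gave 22.4 and 46.5, and 36.6 and 58.1. For both genes the AZA array was the brighter in each line, with log2 ratios of 1.01 and 1.20 for IFIT1 and 1.05 and 0.67 for IFIT2. IFIT3, which stabilises the complex of the other two, gave 25.0 and 21.7 in MDS-L and 40.7 and 35.5 in MDS-L/CDA cells, a log2 ratio of -0.20 in both. IFIT5, a monomer that binds 5′-phosphorylated RNA, had 14.0 and 34.5 in MDS-L cells, a log2 ratio of 1.30. In MDS-L/CDA cells it had 21.3 with vehicle and 11.9, below background, with AZA, a fall of at least 1.59-fold. IFIT5 was thus higher with AZA in one line and lower in the other, and its signals of 11.9 to 34.5 stand beside array floors of 8.61 to 13.4. When the arrays were scaled to the median of all probes, or with normexp background correction and an offset of 50, IFIT1, IFIT2, IFIT5 and DHX58 stayed above a ratio of 1 in MDS-L cells but not past 2-fold, with log2 ratios of 0.40 to 0.90. IFIT1, whose ratio lay next to the threshold, was past 2-fold in 6 of 9 settings, some of which could not change its ratio. With the authors' table its log2 ratio was 0.997.

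**Figure D2:**
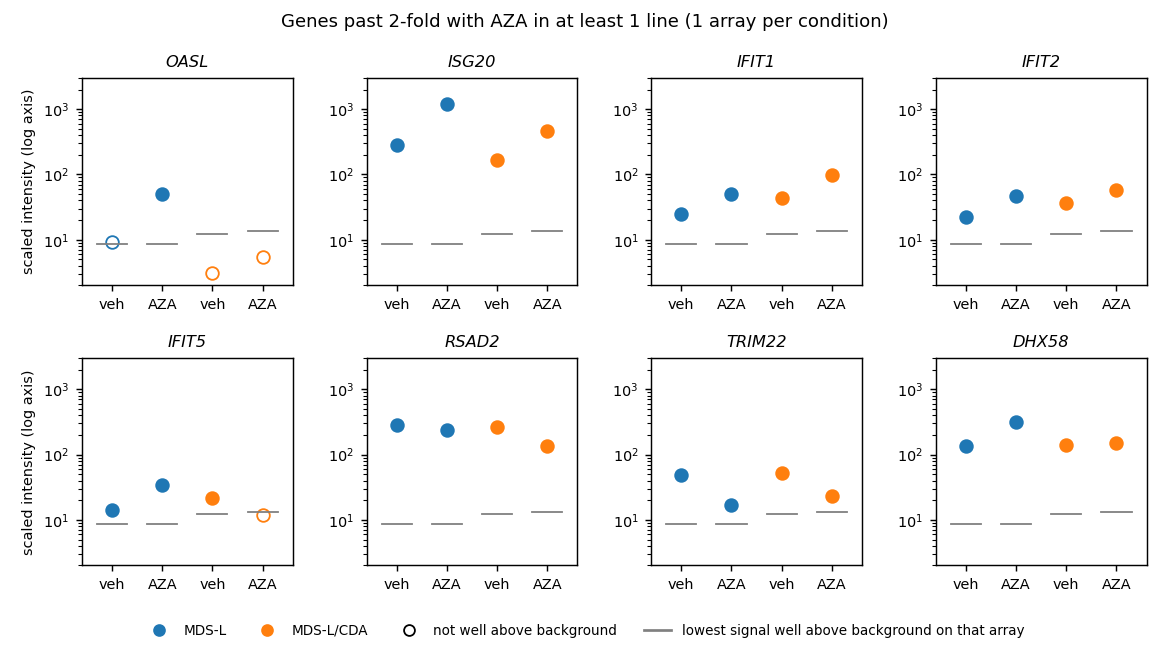
Scaled intensity (log axis) of the 8 genes past 2-fold with AZA in at least 1 line, on the 4 arrays, with 1 array per condition and therefore no error bar. Filled circles are well above background, open circles are not, and the grey line is the floor of the array. ISG20 goes from 278 to 1183 in MDS-L cells and from 166 to 461 in MDS-L/CDA cells, and OASL is above background on the MDS-L AZA array alone.

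The RNA sensors had no common direction. DDX58 (RIG-I), the sensor of 5′-triphosphate RNA, had a scaled intensity of 51.8 with vehicle and 60.5 with AZA in MDS-L and 83.2 and 74.0 in MDS-L/CDA cells. IFIH1 (MDA5), the sensor of long double-stranded RNA, had 91.1 and 66.5, and 96.1 and 102. Their log2 ratios were 0.22 and -0.45 in MDS-L and -0.17 and 0.08 in MDS-L/CDA cells. A second DDX58 probe, also above background on all arrays and on chromosome 9 at 32455728 to 32455787 of hg19 against 32455398 to 32455457 for the brighter one, gave -1.76 in MDS-L and -0.13 in MDS-L/CDA cells, so the direction for DDX58 in MDS-L cells rests on the choice of probe. DHX58 (LGP2), the third member of the family, which binds RNA without signalling itself and modulates the other two, had 133 and 319 in MDS-L and 139 and 152 in MDS-L/CDA cells. The MDS-L AZA array stood apart from the other 3, with a log2 ratio of 1.26 against 0.13 in MDS-L/CDA cells. MAVS, the adaptor on mitochondria, had 745 and 752 in MDS-L and 538 and 789 in MDS-L/CDA cells, and its 4 probes gave log2 ratios of -0.48 to 0.01 in MDS-L cells and -0.09 to 0.55 in MDS-L/CDA cells. TLR3, the endosomal sensor, was below background on all 4 arrays at 2.19 to 3.22.

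Among the transcription factors IRF7, the master regulator of type I interferon genes and itself an interferon target, had a scaled intensity of 1065 with vehicle and 1705 with AZA in MDS-L and 1147 and 1647 in MDS-L/CDA cells. Its ratios of 1.60 and 1.44 were under 2-fold in both lines and larger than the technical SD. IRF1, which acts downstream of several cytokines, had 49.0 and 47.3, and 89.3 and 86.5, so its vehicle and AZA arrays were alike and the lines were not. IRF9, the DNA-binding subunit of the interferon-activated complex, had 134 and 185 in MDS-L and 122 and 104 in MDS-L/CDA cells. A second IRF9 probe, above background on the MDS-L arrays only, gave a log2 ratio of -0.40 there against 0.47 for the brighter probe. STAT2, its partner, had 836 and 827, and 704 and 643, with both AZA ratios within 1 technical SD.

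The genes of ISGylation attach and remove the ubiquitin-like protein ISG15. ISG15 itself had a scaled intensity of 3674 with vehicle and 4520 with AZA in MDS-L and 4017 and 4658 in MDS-L/CDA cells. Its ratios were 1.23 and 1.16, the second within the technical SD. USP18, which removes ISG15 and restrains the interferon receptor, had 257 and 359, and 313 and 505, ratios of 1.40 and 1.61. HERC5, the main ligase, was above background on the MDS-L AZA array alone at 12.7, at least 1.25-fold over vehicle, and its relative HERC6 was below background throughout.

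The membrane-associated inhibitors of virus entry and release stayed within 2-fold in both lines on the probes used. IFITM1 had a scaled intensity of 37530 with vehicle and 28178 with AZA in MDS-L and 45081 and 32804 in MDS-L/CDA cells. IFITM1, IFITM2 and IFITM3, which block fusion of virus with cell membranes, had log2 ratios of -0.41, -0.15 and 0.02 in MDS-L and -0.46, -0.23 and -0.08 in MDS-L/CDA cells. These neighbouring genes on chromosome 11 are similar in sequence, so probes may share signal. A second IFITM1 probe gave -1.13 in MDS-L and -0.30 in MDS-L/CDA cells. BST2 (tetherin), which holds budding virus at the cell surface, had log2 ratios of -0.34 and 0.15, and a second BST2 probe gave 0.03 and -0.18.

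On the probes used, the remaining antiviral effectors included the only listed genes past 2-fold lower with AZA. TRIM22, a ubiquitin ligase with activity against retroviruses, had a scaled intensity of 47.8 with vehicle and 16.9 with AZA in MDS-L and 51.3 and 23.6 in MDS-L/CDA cells. Both lines started at a like level and both AZA arrays were lower, by 2.82-fold and 2.18-fold, although with normexp correction the log2 ratios were -0.57 and -0.39. RSAD2 (viperin), which makes a chain-terminating nucleotide, had 286 and 239 in MDS-L and 267 and 133 in MDS-L/CDA cells, so the MDS-L/CDA AZA array was the low one, by 2.01-fold, and with the authors' table its log2 ratio was -0.99, not past the threshold. CMPK2, the nucleotide kinase beside RSAD2 on chromosome 2, had 8092 and 4798, and 6808 and 7919. Here the MDS-L AZA array was the low one, and a second CMPK2 probe gave log2 ratios of -1.54 and -0.63 against -0.75 and 0.22 for the brighter probe. The kinase EIF2AK2 (PKR), which stops translation on binding double-stranded RNA, had 665 and 706, and 820 and 992, with log2 ratios of 0.09 and 0.27. The GTPase MX1 had 16.1 and 17.0 in MDS-L cells and 16.7 and, below background, 12.9 in MDS-L/CDA cells. Its relative MX2 had log2 ratios of -0.32 and -0.02, SAMD9L had -0.03 and 0.34, and SAMD9 was below background throughout.

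IFI6 and IFI44 came closest to the threshold among the other interferon-induced genes. IFI6, a small mitochondrial and endoplasmic reticulum protein, had a scaled intensity of 225 with vehicle and 436 with AZA in MDS-L and 278 and 396 in MDS-L/CDA cells. IFI44 had 26.3 and 50.5, and 25.0 and 41.9. IFI35 had 57.3 and 64.7 in MDS-L and 104 and 166 in MDS-L/CDA cells. All 3 were brighter with AZA in both lines, with log2 ratios of 0.95 and 0.51 for IFI6, 0.94 and 0.74 for IFI44 and 0.18 and 0.68 for IFI35. LGALS3BP had ratios of 1.24 and 1.12. IFI27, IFI44L, XAF1, EPSTI1 and the chemokine CXCL10 were below background on all 4 arrays. The ADP-ribosyltransferases PARP9, PARP12 and PARP14 and the PARP9 partner DTX3L had log2 ratios of 0.04, -0.55, 0.09 and -0.25 in MDS-L and 0.12, 0.13, -0.49 and 0.08 in MDS-L/CDA cells, and a second PARP9 probe gave -1.12 and -0.49.

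Genes with and without an ISRE core, by exact match to the motif given above, were set side by side for AZA. GAAA repeats at another spacing, as in the windows of DDX58 and IFI35, did not count as a core. The 19 genes with a core and measured on both MDS-L arrays had a median log2 ratio of 0.08, ranging from -0.55 to 2.09, and the 8 without one had a median of -0.00, ranging from -0.75 to 0.47. In MDS-L/CDA cells the medians were 0.13 for 17 genes and 0.09 for 8 genes. All 3 genes with a matched window that were past 2-fold higher in MDS-L cells, ISG20, IFIT1 and IFIT5, held a core, as did 7 genes that were below background on both MDS-L arrays. The difference between the medians was not tested.

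**Figure D3:**
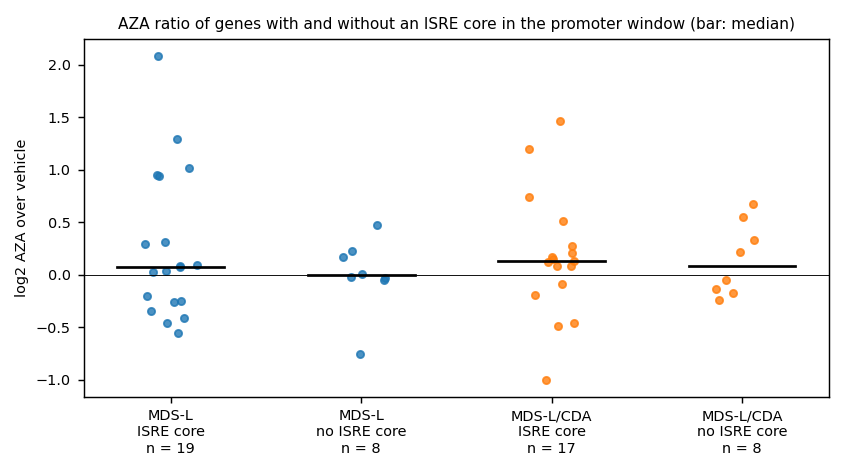
Log2 ratio of scaled intensity, AZA over vehicle, of genes with and without the ISRE core in the promoter window, measured on both arrays of MDS-L cells (blue) or MDS-L/CDA cells (orange). Each point is a gene and the bar is the median, 0.08 and -0.00 in MDS-L and 0.13 and 0.09 in MDS-L/CDA cells.

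Between the lines, the AZA ratios of the 32 genes above background on all 4 arrays were related but not equal. No array was shared by the 2 ratios. Pearson's r across the 32 genes was 0.73, and 0.39 across 13962 genes of the array, given as a description since genes are not independent replicates and all 4 arrays share probes and base composition. In 14 of the 32 genes both ratios were above 1 and in 8 both were below, 4 were above 1 in MDS-L cells only and 6 in MDS-L/CDA cells only. Over the 13962 genes the counts in the same order were 3410, 5179, 1604 and 3769. The median of the difference, MDS-L minus MDS-L/CDA, was 0.02 on the log2 scale, against -0.15 over all genes. DHX58 was the only gene of the 32 (3.13%) with a ratio at least 2-fold larger in MDS-L cells or in MDS-L/CDA cells, with a difference of 1.13, where 10.0% of all genes had a difference of that size. CMPK2 lay at the other end with a difference of -0.97. These differences were not tested, and the technical SD of each ratio enters them.

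**Figure D4:**
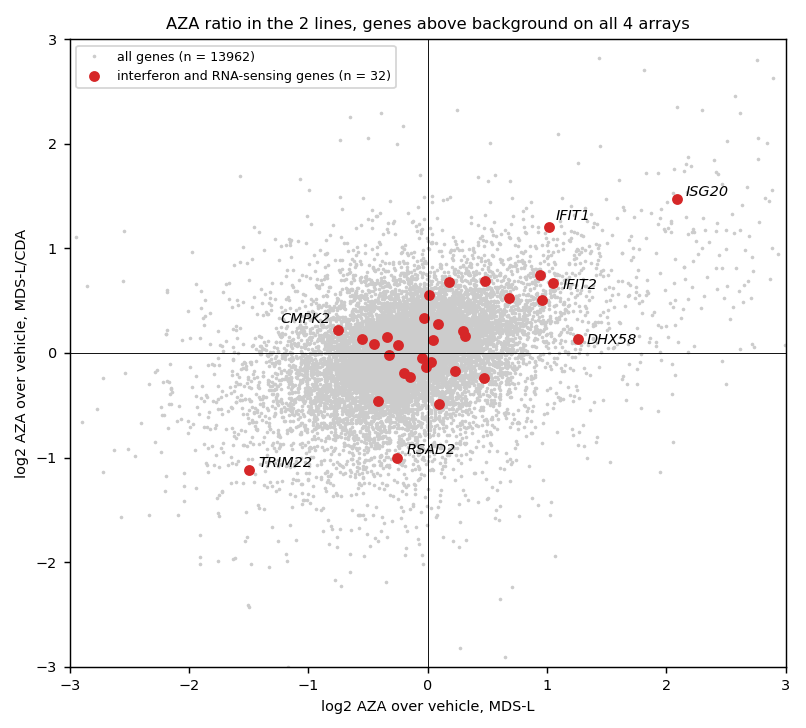
Log2 ratio of scaled intensity, AZA over vehicle, in MDS-L cells (x axis) against MDS-L/CDA cells (y axis) for the 13962 genes above background on all 4 arrays (grey) and the 32 interferon and RNA-sensing genes among them (red). ISG20 and IFIT1 lie high on both axes, TRIM22 low on both, and DHX58 is high in MDS-L cells at 1.26 and near 0 in MDS-L/CDA cells at 0.13.

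The comparison of the 2 lines asks whether the resistant line held these genes at another level. It shares its arrays with the AZA comparisons, so the ratios of the 2 kinds are not separate measurements. With vehicle none of the 34 measured genes was 2-fold higher or 2-fold lower in MDS-L/CDA cells, where 1.97% of 16015 genes were higher and 2.64% lower. The median log2 ratio, MDS-L/CDA over MDS-L, was 0.27, against 0.09 for all genes, and ran from -0.74 for ISG20 to 0.87 for IRF1. The 4 IFIT genes had 0.60 to 0.77. The ratio was above 1 in 25 of the 34 genes, against 60.7% of all genes, and without any scaling the median was -0.09, so that this direction rests on the scaling.

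Under AZA 1 gene, IFI35, was at least 2-fold higher in MDS-L/CDA cells and 4 genes, OASL, ISG20, IFIT5 and DHX58, at least 2-fold lower, of 36 measured (2.78% and 11.1%), where 5.43% of 16739 genes were higher and 5.23% lower. IFI35 had 166 in MDS-L/CDA cells against 64.7 in MDS-L cells, 2.57-fold. ISG20 was 2.57-fold and DHX58 2.10-fold lower in MDS-L/CDA cells, OASL at least 3.78-fold and IFIT5 at least 2.57-fold. OASL was counted as measured through the MDS-L AZA array alone. SAMD9L, at a ratio of 1.99, stood just outside the threshold on the higher side and RSAD2, 1.80-fold lower, on the other. The median log2 ratio over 32 genes was 0.31, against 0.23 for all genes, and -0.20 against -0.27 without scaling.

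**Figure D5:**
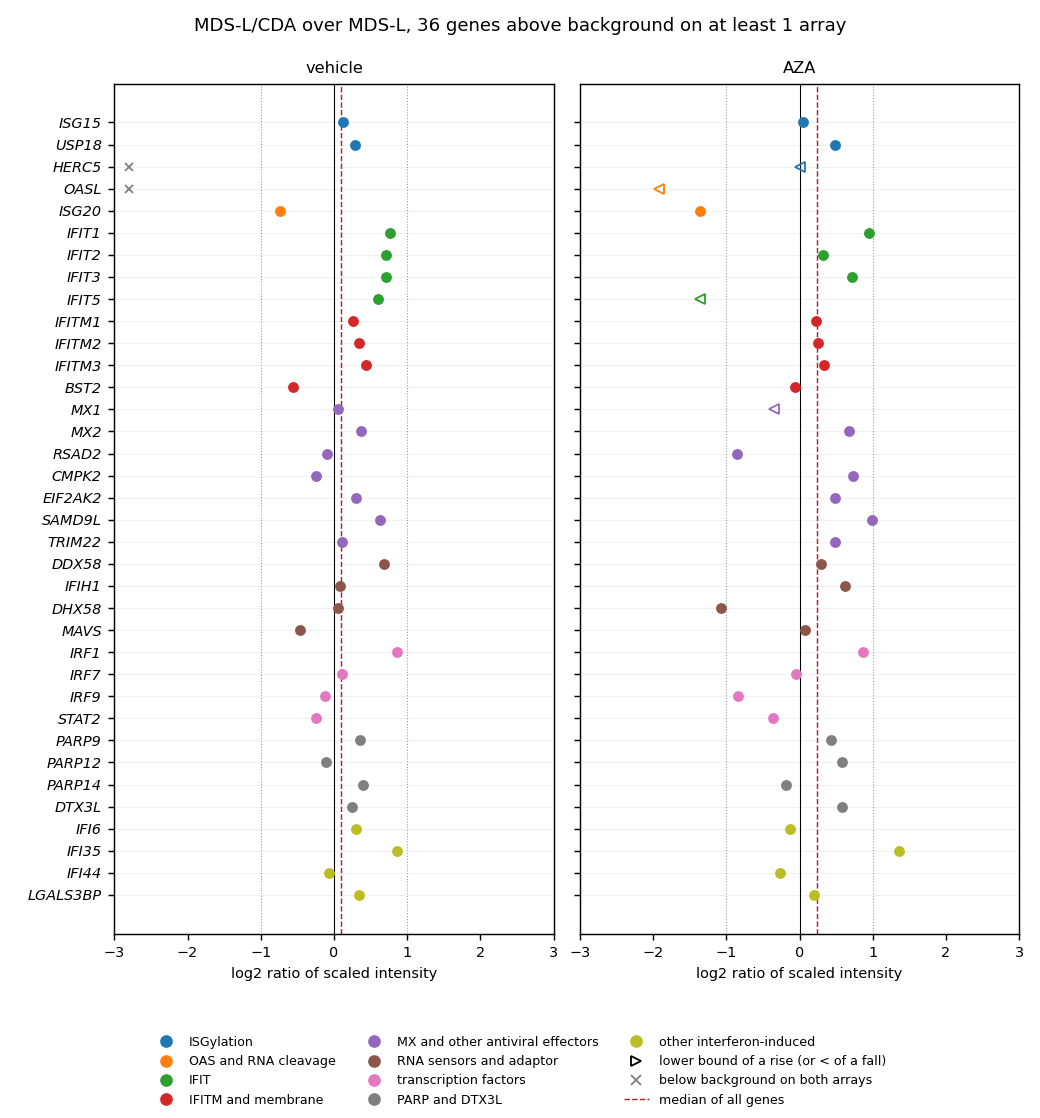
Log2 ratio of scaled intensity, MDS-L/CDA over MDS-L, for the 36 measured genes with vehicle (left) and with AZA (right), coloured by role, with circles for ratios, open triangles for bounds, crosses for genes below background on both arrays, dotted lines at 2-fold and a dashed line at the median of all genes. With vehicle the ratios lie between -0.74 and 0.87, and with AZA ISG20, OASL, IFIT5 and DHX58 lie below the lower dotted line.

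The rest of the pathway was taken from lists by function. Of the 17 interferon genes on the array, only IFNL1 (IL29 in the list used here), a type III interferon, was above background. It had a scaled intensity of 5.16 with vehicle and 20.0 with AZA in MDS-L and 7.56 and 14.8 in MDS-L/CDA cells, above background on the AZA arrays only, which gives ratios of at least 2.33-fold and 1.20-fold. IFNB1, the first interferon made after RNA sensing, was below background on all 4 arrays at 1.90 to 3.62. Of the 9 measured receptor and JAK-STAT genes none was past 2-fold with AZA in either line. The receptor chain IFNAR1 had 121 and 122 in MDS-L and 68.2 and 83.2 in MDS-L/CDA cells, and IFNAR2 had 402 and 486, and 383 and 467.

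Of the sensing adaptors and kinases 15 were measured in MDS-L cells, with none higher and 2 lower past 2-fold (13.3%, against 6.03% of all genes), and 14 in MDS-L/CDA cells, with none higher and 1 lower (7.14%, against 3.07%). The 2 were sensors of DNA. MB21D1 (cGAS), which makes the messenger that activates STING, had 192 and 84.5 in MDS-L and 173 and 43.4 in MDS-L/CDA cells, 2.27-fold and 3.98-fold lower with AZA. IFI16, a nuclear DNA-binding protein, had 82.2 and 36.8 in MDS-L and 65.6 and 93.2 in MDS-L/CDA cells, lower with AZA in the first line alone.

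All 19 genes that limit sensing or interferon signalling were measured. In MDS-L cells 2 were past 2-fold higher and 2 lower (10.5% each, against 6.73% and 6.03% of all genes), and in MDS-L/CDA cells 1 was higher (5.26%, against 2.53%) and none lower. SOCS3, an inhibitor of cytokine receptors, was higher in both lines, with log2 ratios of 1.22 and 1.16. TREX1, the exonuclease that clears cytosolic DNA, and RNASEH2C, a subunit of the enzyme that removes RNA from DNA, had -1.23 and -1.01 in MDS-L and -0.44 and -0.18 in MDS-L/CDA cells.

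Genes that restrict retroelements included 4 of 13 measured past 2-fold higher in MDS-L cells and none lower (30.8% of the list, against 6.73% of all genes). The median of the 12 measured on both arrays was nevertheless -0.10, with 8 of the 12 ratios below 1. The cytidine deaminases APOBEC3B and APOBEC3G had log2 ratios of 2.09 and 1.63 there, APOBEC3D at least 1.02, and the antiviral zinc-finger protein ZC3HAV1 had 1.25. In MDS-L/CDA cells 1 of 12 was higher (8.33%, against 2.53%), APOBEC3B by at least 2.83-fold, and 1 lower (8.33%, against 3.07%), TASOR (FAM208A on the array), a silencer of retroelements, by 2.48-fold. APOBEC3 genes are close relatives, so their probes may share signal. Of 8 genes derived from retroviruses, 3 were measured in MDS-L cells. ERVMER34-1 had 347 and 94.1 in MDS-L and 164 and 206 in MDS-L/CDA cells, lower with AZA in the first line, while ERVK13-1 had 16.6 and 26.7, and 16.2 and 36.8, past 2-fold higher as a bound in MDS-L/CDA cells. These are genes, and the repeats themselves were not examined.

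Of the other interferon-induced genes 33 were measured in MDS-L cells, with 2 past 2-fold higher and 3 lower (6.06% and 9.09%), and 28 in MDS-L/CDA cells, with 1 higher and 2 lower (3.57% and 7.14%). These shares lie near those of all genes, 6.73% and 6.03% in the one line and 2.53% and 3.07% in the other, so the genes named next are a description of single values. CCRL2, a chemokine-binding receptor, was the gene higher in both lines, by 2.30-fold and 2.14-fold, and the guanylate-binding protein GBP4 was above background on the MDS-L AZA array alone, at least 2.08-fold higher there. IRF2, a repressor of interferon genes, was lower in MDS-L cells by at least 2.17-fold, TNFSF10 (TRAIL) by 2.15-fold and SLFN11 by 2.16-fold. APOL6 and the helicase DDX60 were lower in MDS-L/CDA cells, by 2.94-fold and 2.14-fold. The median log2 ratio of this list was -0.20 in MDS-L and 0.04 in MDS-L/CDA cells, near those of all genes.

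Markers of other blood cells were above background on each of the arrays, and their summed signal was higher with AZA for some lists and lower for others. These sums include probes below background. The summed scaled intensity of 6 T or NK cell markers was 42.5 with vehicle and 287 with AZA in MDS-L cells, mainly through CD3D and CD2. In MDS-L/CDA cells it was 27.7 and 41.6. Of the 6 markers 1 and 3 were above background in MDS-L cells with vehicle and AZA, and 0 and 1 in MDS-L/CDA cells. The 1 marker measured on both MDS-L arrays had a log2 ratio of -0.13. On all 4 arrays 3 of the 6, CD3E among them, were below background. For 6 monocyte or macrophage markers the sum was 44.2 and 79.0, and 25.1 and 67.9, with 2 and 3, and 0 and 2, above background. CSF1R was at least 4.86-fold higher in MDS-L cells. The 2 markers measured on both arrays there had log2 ratios of -0.58 and 0.98. CD163, FCGR1A and S100A9 were below background on all 4 arrays. For 6 plasmacytoid dendritic cell markers the sum was lower with AZA, at 946 and 600, and 783 and 653, with 1 and 1, and 2 and 1, above background. The 1 marker of these above background on all 4 arrays had log2 ratios of -0.69 in MDS-L and -0.23 in MDS-L/CDA cells. Of 4 B cell markers 3 were above background on every array. CD79A and CD79B had log2 ratios of -0.39 and -0.47 in MDS-L and -0.05 and 0.26 in MDS-L/CDA cells. The third went the other way in MDS-L cells, past 2-fold higher with a log2 ratio of 2.05, and had 0.44 in MDS-L/CDA cells. For 8 progenitor markers the sum was 6612 and 6938, and 7341 and 7246, with KIT 47.3-fold and 3.58-fold higher with AZA and CD38 2.79-fold lower in MDS-L cells. The part of these genes in the interferon gene ratios was not tested.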

How the data were processed

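Total RNA of 4 conditions was labelled with Cy3 and hybridized to 1 one-colour Agilent array each. The authors deposited 1 scanner file per array from Agilent Feature Extraction 10.7.1.1 (the version their files give), whose processed signal is an intensity on a linear scale after background subtraction within the array and before any normalization between arrays. They also deposited a table of processed intensity for 51680 probes, whose normalization is not given in the sources used here and which was used only as an alternative. Probe positions are on hg19.

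Control spots were dropped, as were spots flagged as outliers, which removed 16 probes and left 58185. Spots of 1 probe were averaged on the log2 scale, and each array was then set to a common 75th percentile. The 47 genes, their roles and the other lists were chosen with earlier results of these data known. Each listed gene is named under its role. All 4 values are given for genes past 2-fold in a comparison and for sensors, transcription factors, ISG15, USP18 and EIF2AK2. Genes of the other lists are named when past 2-fold with AZA, as are IFNB1, IFNAR1, IFNAR2, CDA and DNMT1, and a few items are not reported here. The ratio of 2 follows the methods of the study. Its Z score, whose construction is not given in the sources used here, was not used. Precision is limited by having 1 array per condition, and no p-value is given. The calling rule was tested on simulated data, with changes larger than 2-fold in brighter probes. It was not tested on changes near 2-fold or on signals near the floor of an array.

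Promoter windows came from RefSeq on GRCh38.p14, by symbol, with DDX58 matched as RIGI and, where a gene had several windows, the one with the most ISRE cores (the same for all genes). IFIT2, IFITM2, MX2, OAS2, OASL, USP18, DHX58, IRF7 and TRIM22 had no match. Values were computed with Python 3.11.15, numpy 2.4.6 and pandas 2.3.3, and the normexp correction with limma 3.58.1 in R 4.3.3. The alternatives were other scalings, normexp with an offset of 50, the authors' table, the mean over probes, other treatments of dim signals and a 1.5-fold threshold.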

Additional observations from a re-analysis of the deposited data

Results flagged for a closer look

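IFIT5 went opposite ways with AZA in the 2 lines. Its log2 ratio was 1.30 in MDS-L, while in MDS-L/CDA cells it was lower by at least the bound of -0.67, since the AZA array there was below background. With 1 array per line and treatment the difference was not tested, and its signals of 11.9 to 34.5 stand beside array floors of 8.61 to 13.4.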

How the results depend on the processing

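The direction of the 16 single-gene ratios past 2-fold was kept in all 141 values under the alternatives, and 120 of these were still past 2-fold. For a gene above background on both arrays with 1 usable probe, some settings return the main ratio by construction. These are the mean over probes and the other treatments of dim signals. ISG20 in its 3 comparisons and DHX58 between the lines under AZA were past 2-fold in all 9 settings. RSAD2 in MDS-L/CDA cells was past 2-fold in 5 of 9, with log2 ratios of -1.13 to -0.63. These counts include the settings that could not change the ratio. With normexp and an offset of 50, which by construction draws low signals together, AZA left 1 gene higher and 0 lower in MDS-L cells and 1 higher and 0 lower in MDS-L/CDA cells, and between the lines under AZA 0 higher and 2 lower, with median log2 ratios of 0.063 between the lines with vehicle and 0.11 under AZA. Scaled to the median of all probes, 2 genes were higher and 3 lower with AZA in MDS-L cells and the median was -0.48, 2 were lower between the lines with vehicle with a median of -0.25, and the median difference of the AZA ratios was -0.47. Without scaling, the median was 0.0034 for AZA in MDS-L/CDA cells, -0.093 between the lines with vehicle, with 1 gene lower, and -0.20 under AZA, with 0 higher, and the median difference was 0.16. These 2 settings also moved the median of all genes, and the distance of the list from it stayed at 0.21 in MDS-L cells, 0.12 in MDS-L/CDA cells, 0.18 between the lines with vehicle and 0.07 under AZA. Scaled to the median of probes above background, the median was 0.19 in MDS-L cells and 0.17 between the lines under AZA, the median difference 0.14, and 1 gene was lower in MDS-L/CDA cells. Quantile normalization and the authors' table each gave a median of 0.18 in MDS-L cells and 0.19 between the lines under AZA, with 1 gene lower in MDS-L/CDA cells. With the mean over probes, 2 genes were lower in MDS-L cells, 1 was higher between the lines with vehicle, where the median was 0.15, 2 were higher under AZA, and the median difference was -0.10. Counting only genes above background on both arrays, 2 genes were lower between the lines under AZA. At a threshold of 1.5-fold, 2 genes were lower with AZA in MDS-L cells, 6 higher in MDS-L/CDA cells, 8 higher and 1 lower between the lines with vehicle and 8 higher under AZA. The share of all genes past the threshold was not computed under the alternatives, so none of these counts has a background beside it. Beyond what is stated for normexp and for the distances, the cause of these shifts was not tested. No paired analysis was possible because, by replicate number, each condition had 1 array and the labels carry no such number. A fit of AZA with the line as a block, which would take the difference between the lines as its error, was not run. Leaving out an array would leave no ratio to compute, and signals near the floor of an array, 8.61 to 13.4, give bounds rather than ratios.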
